A study of Drosophila melanogaster with 40 samples.

Results

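The middle of recovery from heat shock, from 2 h to 4 h, was followed in whole flies of Drosophila melanogaster by setting the library made 4 h after heat shock against the library made 2 h after it within each of 5 series of flies. These 10 of the study's 40 libraries were chosen by hour and series and not by any measured value. This choice, the gene lists and the tests were made with earlier results of these data known. The series were wildtype young climbers, wildtype young non-climbers, wildtype old climbers, wildtype old non-climbers and insulin ablated old climbers, all of them heat-shocked, with 1 library a series at each hour. Insulin ablated young flies and the unheated controls were left out of the test, and the 3 controls of matching genotype and age, collected at 4 h, are given as a background. The labels class heat-shocked flies as climbers or non-climbers and do not give the sex, the age in days, the heat, the number of flies in a library or how insulin cells were ablated. Ilp2, an insulin-like peptide of the brain's insulin-producing cells, had no count in the ablated library of 4 h or in that of 2 h. In the 4 wild-type series, Ilp2 lay between 0.679 and 1.53 CPM (counts scaled to a common library total) at 4 h and between 0.698 and 2.14 CPM at 2 h.

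RNA was counted per gene from the 3' ends of transcripts, and CPM were normalized between libraries by the trimmed mean of M values (TMM). The libraries held 14437756 to 22557148 counts at 4 h and 14244439 to 27120134 counts at 2 h. Both libraries of each series carry the same batch label, so a pair is compared within a batch, but the hour since heat shock and the hour of the day cannot be told apart. Defining markers of eye, muscle, fat body, gut and ovary were present in all 10 libraries. The 22 testis and male accessory gland genes in the table summed to 0.446 to 1.81 CPM at 4 h and 0.523 to 2.37 CPM at 2 h, and none of them passed the filter on low counts. On the third principal component, with 6.89% of the variance, all 5 libraries of 4 h lay on the other side of 0 from the 5 libraries of 2 h. On the leading component, with 46.2%, both ablated libraries lay apart from the wild types, and on the next, with 21.3%, the wild-type young libraries lay on the other side of 0 from the old ones.

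Heat makes proteins unfold, and cells answer by switching on chaperones of the Hsp70, Hsp40, Hsp90 and small heat shock protein families through heat shock factor; these transcripts are removed again during recovery. In the fly, defence peptides are made chiefly in the fat body under the Toll and Imd pathways, and females devote much of their RNA to yolk proteins and to the vitelline membrane and chorion that follicle cells lay down around the egg in turn. Digestive proteases are products of the midgut.

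Between 2 h and 4 h, 10 inducible heat shock genes, 6 vitelline membrane and eggshell genes, 3 yolk protein genes and 8 gut proteases fell, while 9 peptides of the Toll pathway rose. Of 9897 genes tested, 151 passed an adjusted p of 0.05 (edgeR quasi-likelihood test with the series as a block and Benjamini-Hochberg adjustment over all genes), which is 1.53%. They were 90 genes higher at 4 h (0.909%) and 61 lower at 4 h (0.616%). The median log2 fold change was 0.57 among the genes that rose and -0.64 among those that fell, and 24 of the 151 changed by more than 2-fold. In 149 of the 151 the change had the same direction in all 5 series, against 1118 of all genes tested. The paired test favours such genes, so this is no separate support. The median log2 fold change of all genes, always 4 h minus 2 h, was near 0, with 4817 genes above 0 and 5080 below. Leaving out the wild-type young non-climbers lowered the count to 96 genes, and the other series left out in turn gave 106 to 123. A fit that took its spread from 30 libraries of the 5 series at 6 hours called 36 genes. In that fit 8 inducible heat shock genes kept a call, and no member of the vitelline membrane, yolk, gut protease, Toll or Imd lists did. A fit with climbers and non-climbers of an age summed into 1 library, leaving 3 cohorts, called 122 genes.

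**Figure D1:**
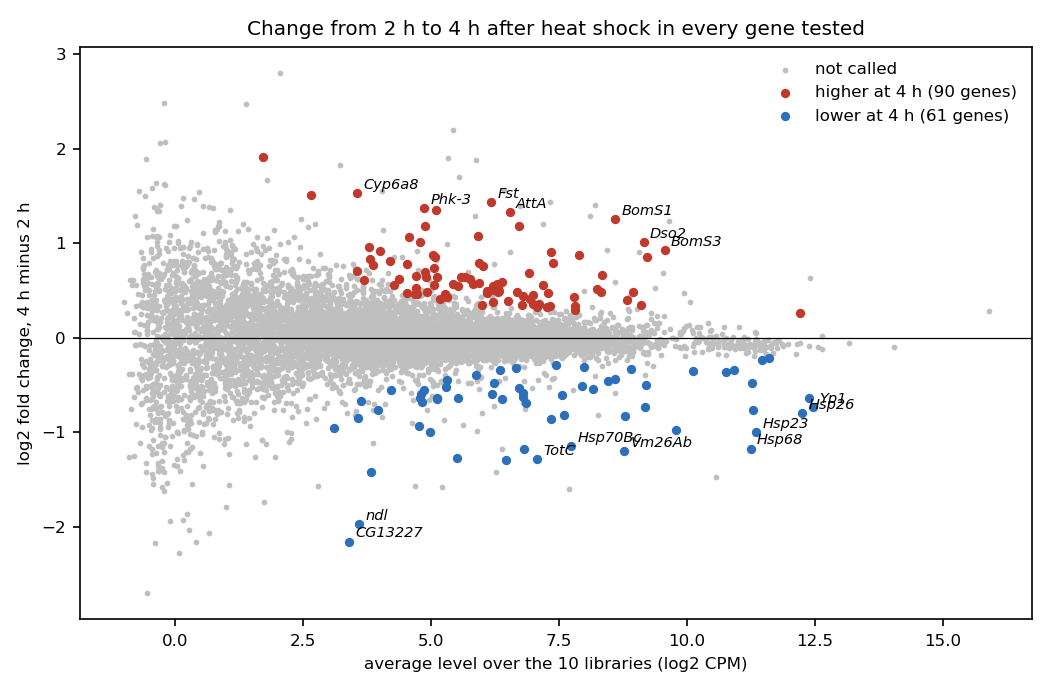
Change of every gene tested: the horizontal axis is the average level over the 10 libraries in log2 CPM, the vertical axis the log2 fold change of 4 h minus 2 h, and each point is 1 gene. The 90 genes higher at 4 h and the 61 lower at 4 h are coloured, and the heat shock genes Hsp68, Hsp23 and Hsp26 stand out among the abundant genes.

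The inducible heat shock genes fell while staying above the unheated controls. Of the 13 members tested, 10 were lower at 4 h and none higher, and all 13 had a fold change below 0, with a median of -0.82 against a median of all genes near 0. Hsp68, an inducible Hsp70-family chaperone at 3R:24055080-24057310, stood at 1978, 1881, 1158, 1644 and 918 CPM at 4 h, in the order of the series above, against 4381, 3877, 2055, 4156 and 2594 CPM at 2 h. Every library of 4 h was below every library of 2 h. The log2 fold change was -1.17 ± 0.09 (SE implied by the p-value, 5 pairs, adjusted p = 8.25e-05, edgeR quasi-likelihood test). The 3 controls held 50.4, 22.3 and 6.58 CPM of Hsp68 in wild-type young, wild-type old and ablated old flies, so at 4 h it remained far above them in all 5 series.

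Of the listed small heat shock proteins, which hold unfolded proteins in a soluble state, Hsp23, Hsp26 and Hsp67Bc moved in the same direction. Hsp27 was in no list and was not among the called genes. l(2)efl, kept in another list, did not pass (0.12 with SE 0.09). Hsp23, at 3L:9381882-9382765, had 1645, 1538, 1844, 2129 and 1721 CPM at 4 h, against 3792, 2844, 3150, 3789 and 4145 CPM at 2 h, a log2 fold change of -0.99 ± 0.07 (adjusted p = 2.32e-05, edgeR quasi-likelihood test). The groups did not overlap, and the 4 h libraries were also close to each other, with a mean of 1775 ± 227 CPM (SD, n = 5) at 4 h and 3544 ± 531 CPM at 2 h. Hsp26, at 3L:9376418-9377427, had 4175, 4245, 3173, 3897 and 2575 CPM at 4 h, against 7838, 6882, 4779, 7129 and 4773 CPM at 2 h. It fell by 0.79 on the log2 scale (SE 0.05, adjusted p = 1.66e-06, edgeR quasi-likelihood test) with no overlap between the hours. Hsp67Bc, another small heat shock protein, had 22.3 to 75.6 CPM at 4 h against 67.7 to 178 CPM at 2 h, so its groups overlapped across series although each pair fell (-1.29 ± 0.13, adjusted p = 0.000921, edgeR quasi-likelihood test).

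The Hsp70 copies are near-identical, so which copy a read came from is uncertain. Hsp70Bc, at 3R:12509076-12511461, had 136, 147, 110, 172 and 98.7 CPM at 4 h, against 334, 347, 183, 407 and 227 CPM at 2 h, with no overlap and a log2 fold change of -1.14 ± 0.08 (adjusted p = 1.87e-06, edgeR quasi-likelihood test). Hsp70Ab had 194, 227, 140, 191 and 4.78 CPM at 4 h, against 284, 291, 203, 367 and 7.43 CPM at 2 h. The ablated flies were far below the wild types at both hours for this copy, and not for Hsp70Bc. Hsp70Bb fell as well (-0.99 ± 0.19), although its call was lost when either wild-type young series or the ablated series was left out (adjusted p up to 0.0927, edgeR quasi-likelihood test). In the 30-library fit Hsp70Ab and Hsp70Bb lost their calls (adjusted p of 0.444 and 0.298, edgeR quasi-likelihood test). Hsp70Aa, at -0.82 with SE 0.28, Hsp70Ba, at -0.75 with SE 0.30, and Hsp67Ba, at -0.90 with SE 0.28, did not pass. Hsp22 was listed with 0 counts in these libraries and overlaps CG4456, with 12 counts, in the annotation. Neither was tested, nor was Hsp70Bbb with 2 counts.

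**Figure D2:**
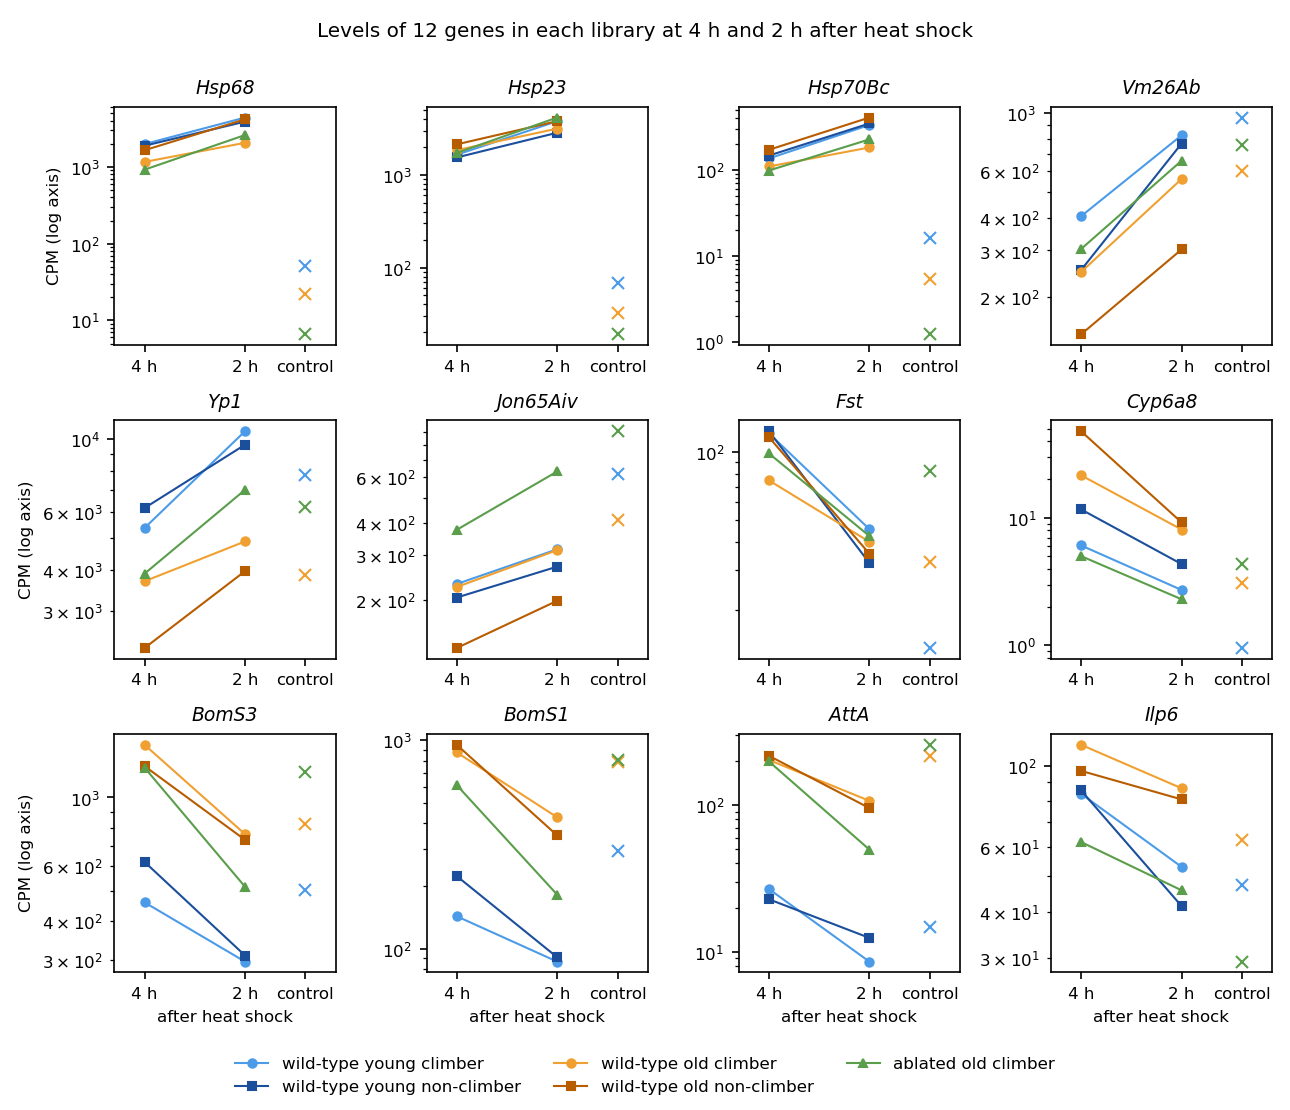
Levels of 12 genes in every library, in CPM on a log axis, at 4 h and at 2 h after heat shock, with a line joining the pair of each series and crosses for the 3 unheated controls (wild-type young, wild-type old and ablated old). The lines of the heat shock, eggshell, yolk and Jonah genes are lower at 4 h in each series, and those of Fst, Cyp6a8, the Bomanins, AttA and Ilp6 are higher at 4 h in each series.

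Partners of the Hsp70 machine fell as well. DnaJ-1, an Hsp40 co-chaperone, had 385 to 517 CPM at 4 h against 584 to 845 CPM at 2 h and fell by 0.74 on the log2 scale (SE 0.07), and stv, the BAG-domain co-chaperone starvin, fell by 0.82 (SE 0.08). Hsp83, the fly Hsp90, had 1602, 1569, 1460, 1533 and 1589 CPM at 4 h, against 2108, 2094, 1616, 2121 and 2068 CPM at 2 h. Its groups did not overlap, its change of -0.36 ± 0.06 was the smallest of the 10, and at 4 h it was nearer the controls, which held 1289, 1075 and 1114 CPM. Among 25 constitutive chaperones and co-chaperones, 2 were lower at 4 h and none higher, with a median of -0.14. These were Hsc70-4, the constitutive Hsp70 of the cytosol, at -0.21 ± 0.05, and unc-45, a chaperone of myosin, at -0.44 ± 0.09. Hsc70-4 lost its call without any series but the young non-climbers (adjusted p up to 0.139, edgeR quasi-likelihood test), and unc-45 without any of the 4 wild-type series (up to 0.0718). With 3 cohorts neither passed (0.0771 for Hsc70-4 and 0.0834 for unc-45, adjusted p of the edgeR quasi-likelihood test). None of 19 heat shock and stress transcription factors passed. asRNA:CR43481 also fell (-0.96 ± 0.20), a call lost without any series but the young non-climbers (adjusted p up to 0.139, edgeR quasi-likelihood test), but it lies opposite Hsp67Ba, and with no strand setting given its reads cannot be told from those of that gene.

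Genes of the vitelline membrane, the inner layer of the eggshell, fell. Of 13 vitelline membrane and eggshell genes tested, 6 were lower at 4 h and none higher, with a median of -1.20. Vm26Ab, at 2L:5957004-5957639, had 405, 253, 248, 144 and 304 CPM at 4 h, against 823, 765, 561, 303 and 659 CPM at 2 h. The hours overlapped across series, because old non-climbers were low at both, but each pair fell, and the log2 fold change was -1.20 ± 0.08 (adjusted p = 1.66e-06, edgeR quasi-likelihood test). Its neighbours Vm26Aa and Vm26Ac fell by 0.97 (SE 0.11) and 1.42 (SE 0.25), and Vml, CG14309 and dec, an eggshell protein of the follicle cells, fell by 1.17, 1.27 and 0.81. The call of Vm26Ab held with any 1 series left out and with 3 cohorts, and was lost in the 30-library fit (adjusted p = 0.257, edgeR quasi-likelihood test). Without the young non-climbers Vm26Aa (adjusted p = 0.0675, edgeR quasi-likelihood test), Vm26Ac (0.143) and dec (0.0541) lost theirs. Without the ablated flies Vm26Ac, Vml and CG14309 lost theirs, as did Vml without the young climbers (0.0605) and CG14309 without the old climbers, with adjusted p up to 0.114 for CG14309 (edgeR quasi-likelihood test).

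Vm34Ca shows how close the remaining members came. It had 1523, 667, 712, 513 and 615 CPM at 4 h, against 3482, 3041, 2167, 1053 and 1561 CPM at 2 h, and its log2 fold change of -1.47 ± 0.19 had an adjusted p of 0.0506 (edgeR quasi-likelihood test). Vm32E, psd and Fcp3C, with log2 fold changes of -1.59, -1.58 and -1.57, were lower in each of the 5 pairs without passing. Femcoat was the 1 member with a fold change above 0, at 0.56 with SE 0.53. The number of members called moved between 3 and 7 as single series were left out: 3 without the ablated series, 5 without either series of wild-type climbers, and 7 without either series of non-climbers.

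Genes of the yolk proteins, which the fat body and follicle cells secrete for the growing oocyte, fell in every series. Yp1 had 5356, 6162, 3687, 2308 and 3888 CPM at 4 h, against 10565, 9608, 4875, 3958 and 7002 CPM at 2 h, a log2 fold change of -0.73 ± 0.07 (adjusted p = 0.00029, edgeR quasi-likelihood test). Young flies were high and old non-climbers low at both hours, so the hours overlapped while each pair fell. Yp2 and Yp3 fell by 0.63 (SE 0.06) and 0.77 (SE 0.07), and these 3 calls held with any 1 series left out and with 3 cohorts. They were lost in the 30-library fit, with adjusted p of 0.108 for Yp1, 0.293 for Yp2 and 0.0594 for Yp3 (edgeR quasi-likelihood test). yl, the receptor that takes yolk into the oocyte, did not pass (-0.16 with SE 0.14). ndl, which encodes the eggshell serine protease nudel, had 6.81, 3.31, 8.17, 5.57 and 1.82 CPM at 4 h, against 31.9, 23.4, 18.2, 14 and 9.87 CPM at 2 h, without overlap (-1.97 ± 0.24, adjusted p = 0.000625, edgeR quasi-likelihood test). In whole flies, fewer cells of a type and less RNA per cell cannot be told apart.

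No called change was found in the chorion, the outer eggshell layer made after the vitelline membrane. None of 14 chorion genes passed, 9 were above 0 and 5 below, and the median was 0.16. Their mean log2 difference of 4 h minus 2 h was 0.96 in young and 0.76 in old wild-type climbers, but -0.52 in young and -0.31 in old wild-type non-climbers and -0.58 in ablated old climbers. Cp38, an early chorion protein, had 3904, 708, 2284, 482 and 831 CPM at 4 h, against 1158, 769, 1402, 762 and 1930 CPM at 2 h. It was thus higher at 4 h in both wild-type climber series and lower in the other 3 series. None of 21 female germline and maternal RNAs passed, with a median of -0.07.

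**Figure D3:**
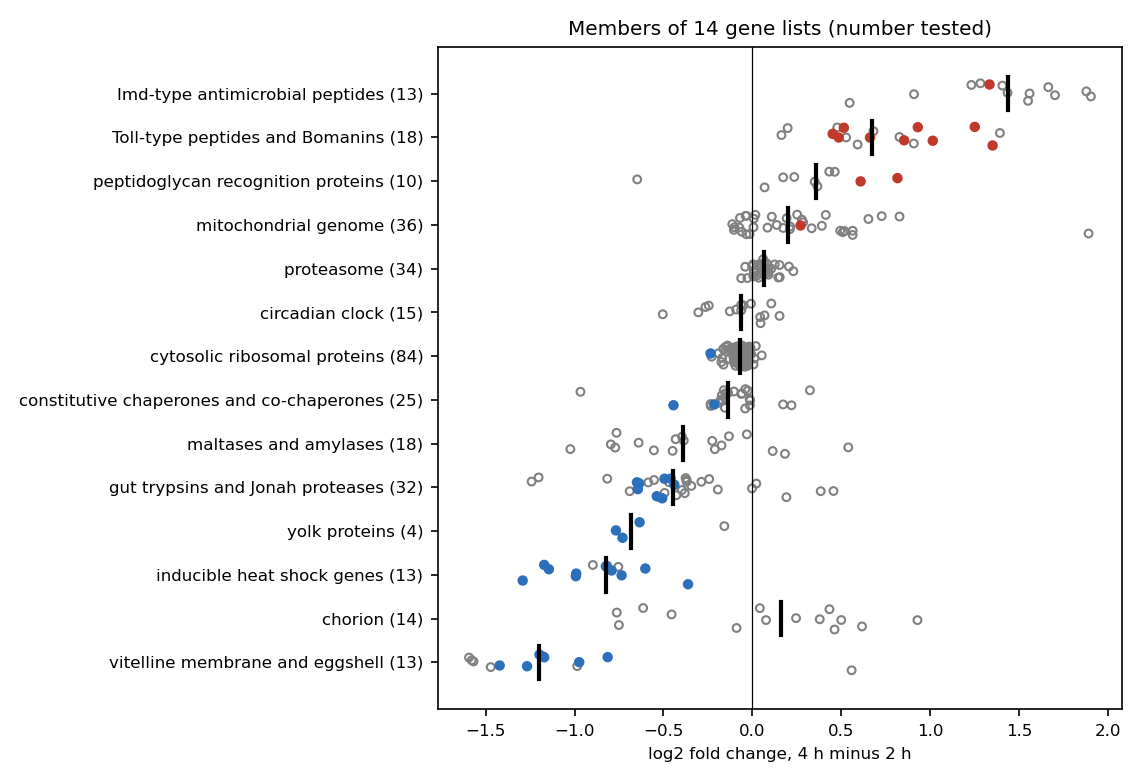
Log2 fold change of 4 h minus 2 h of the members of 14 gene lists, 1 point a gene, with the number tested in parentheses; filled points passed an adjusted p of 0.05 and the black bar is the median. Inducible heat shock and yolk genes, and the vitelline membrane and eggshell genes other than Femcoat, lie left of 0, and Toll-type and Imd-type peptides lie right of 0.

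A minority of the genes of digestion in the midgut fell. Of 32 tested, mostly trypsins and Jonah proteases, 8 were lower at 4 h and none higher, with a median of -0.45, and 24 did not pass. Fold changes below 0 were found in 28 members, against 5080 of all 9897 genes. Jon65Aiv, at 3L:6039155-6040135, had 231, 205, 225, 130 and 375 CPM at 4 h, against 315, 270, 313, 199 and 633 CPM at 2 h (-0.54 ± 0.07, adjusted p = 0.000484, edgeR quasi-likelihood test). It fell in each pair while the ablated flies were highest at both hours. Jon65Aiii, yip7 and epsilonTry fell by 0.51, 0.44 and 0.65. The call of epsilonTry was lost without either young series or the ablated flies (adjusted p up to 0.0796, edgeR quasi-likelihood test). Since proteases of these families share sequence, the split of reads among copies is uncertain. The mean difference of the list was between -0.73 and -0.19 in 4 series and 0.08 in old wild-type non-climbers. The count was 12 without those old non-climbers, 3 without the young climbers or without the ablated flies, 4 without the young non-climbers and 6 without the old climbers. Maltases and amylases, with 18 tested and a median of -0.39, and digestive lysozymes, with 7 tested and a median of -0.39, had no member that passed.

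Several other genes fell. CG13227 had the largest fall by the rule for named genes, with 5.58, 3.44, 2.20, 1.86 and 6.63 CPM at 4 h, against 26.1, 15.3, 9.71, 9.96 and 24.5 CPM at 2 h (-2.15 ± 0.17, adjusted p = 4.77e-06, edgeR quasi-likelihood test). Its hours did not overlap, and the controls held 0.191, 0.777 and 1.32 CPM. TotA and TotC, humoral Turandot peptides released under stress, fell by 0.86 (SE 0.13) and 1.28 (SE 0.19). TotC lost its call without the young climbers or either old wild-type series, and TotA without the young non-climbers or the ablated flies, with adjusted p up to 0.144 for TotC and 0.121 for TotA (edgeR quasi-likelihood test), and with 3 cohorts TotC did not pass (0.39). In the 30-library fit neither passed (0.671 for TotA and 0.467 for TotC, adjusted p of the edgeR quasi-likelihood test). Among the other genes of the Turandot and JAK-STAT list, 8 of 10 tested did not pass, TotM at -1.42 and the feedback inhibitor Socs36E at 0.42 among them. GstE8 and GstE9, glutathione transferases that share sequence with their neighbours, fell by 0.58 and 0.47, and they were the 2 called of 33 transferases. GstE9 lost its call without any series but the old climbers (adjusted p up to 0.0657, edgeR quasi-likelihood test). Among 34 P450 genes, mostly of the Cyp6 and Cyp12 families, Cyp12d1-p fell by 0.76 (SE 0.16), a call lost without any of the 4 wild-type series (adjusted p up to 0.122, edgeR quasi-likelihood test) and with 3 cohorts (0.128), and Cyp6a8 rose.

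Peptides of the Toll pathway rose. Of 18 Toll-type peptides and Bomanins tested, 9 were higher at 4 h and none lower, all 18 had a fold change above 0, and the median was 0.67. Bomanins are short secreted peptides needed for resistance to bacteria and fungi. BomS3, at 2R:18387895-18388734, had 460, 620, 1478, 1262 and 1248 CPM at 4 h, against 296, 310, 762, 730 and 516 CPM at 2 h. Old flies were higher than young ones at both hours, so the hours overlapped, and every pair rose (0.93 ± 0.08, adjusted p = 2.55e-05, edgeR quasi-likelihood test).

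BomS1 had 143, 224, 876, 952 and 610 CPM at 4 h, against 86.9, 91.2, 428, 350 and 182 CPM at 2 h (1.25 ± 0.14, adjusted p = 0.00516, edgeR quasi-likelihood test). BomT1, BomT3 and BomS2 rose by 1.35 (SE 0.16), 0.66 (SE 0.08) and 0.85 (SE 0.10), and Dso2, a Daisho peptide, by 1.02 (SE 0.15). Drosomycin, the antifungal peptide Drs, had 415, 491, 1150, 1475 and 1190 CPM at 4 h, against 360, 420, 980, 576 and 450 CPM at 2 h, and did not pass (0.68 with SE 0.28). It differed little between the hours in both young series and old climbers, and most in old non-climbers and ablated flies. Without the young non-climbers 5 members of the list were called, and the other series left out in turn gave 7 to 10. The calls of BomS3, BomT1 and BomT3 held with any 1 series left out and with 3 cohorts, and were lost in the 30-library fit, at adjusted p of 0.157, 0.173 and 0.0652 (edgeR quasi-likelihood test). Dso2 lost its call without the young non-climbers or either old wild-type series (adjusted p up to 0.233, edgeR quasi-likelihood test) and with 3 cohorts (0.416). BomS1 and BomS2 lost theirs without the young non-climbers (adjusted p of 0.105 for BomS1 and 0.0592 for BomS2, edgeR quasi-likelihood test).

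Of the rising Bomanins, 6 are neighbours: BomT1, BomS1, BomBc2, BomS2, BomS3 and BomT2 lie within 2R:18381393-18389443, where 8 genes were tested. BomT3 and BomBc3 lie together on 3R. Another 5 genes that rose, CG16704, CG16713, IM33, CG3604 and CG10031, lie within 2L:3692123-3699092, where 8 genes were tested. Neighbours that fell included Hsp67Bc, Hsp26 and Hsp23 on 3L, Vm26Ab, Vm26Ac and Vm26Aa on 2L, and Yp2 and Yp1 on X.

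In antibacterial peptides of the Imd pathway, the mean difference over the list varied from series to series, between 0.54 and 2.65. All 13 tested were above 0, against 4817 of all 9897 genes, with a median of 1.44. Higher at 4 h in all 5 pairs were 10 members, against 569 of all genes, but 1 passed. It was AttA, an attacin, with 26.8, 22.8, 204, 218 and 199 CPM at 4 h, against 8.54, 12.4, 107, 95.7 and 49.8 CPM at 2 h (1.33 ± 0.18, adjusted p = 0.0133, edgeR quasi-likelihood test). Its call was lost without the young climbers or without the old non-climbers, with adjusted p up to 0.0842 (edgeR quasi-likelihood test), and with 3 cohorts (0.0521). DptA, a diptericin, had 21.6, 29.0, 739, 613 and 638 CPM at 4 h, against 3.77, 21.0, 417, 421 and 73.8 CPM at 2 h, and with its log2 fold change of 1.41 and SE of 0.56 it did not pass. CecA1 and CecA2, cecropins, had log2 fold changes of 1.88 (SE 0.61) and 1.9 (SE 0.66) and did not pass. Wild-type old flies held more of these 4 transcripts than young ones at both hours, as did ablated old flies at 4 h. At 2 h the ablated library was also above both young series in AttA, DptA and CecA2. It had 10 CPM of CecA2 against 1.98 and 5.33 CPM in young climbers and non-climbers. The number of members called depends on the method, with 8 by DESeq2 and 12 by limma-voom, and on the series, with 0 to 4 as single series were left out.

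In the lists of peptidoglycan recognition and of haemocyte and melanisation genes, 3 genes rose. Of 10 peptidoglycan recognition genes, PGRP-SA, a receptor upstream of Toll, rose by 0.82 (SE 0.16) and PGRP-LA by 0.61 (SE 0.14), with a median of 0.36 over the list. PGRP-LA lost its call with any 1 series left out (adjusted p 0.0918 to 0.124, edgeR quasi-likelihood test), and PGRP-SA with any of the 4 wild-type series left out (up to 0.074). With 3 cohorts neither passed (0.131 for PGRP-LA and 0.207 for PGRP-SA, adjusted p of the edgeR quasi-likelihood test). Spn28Dc, a serpin that restrains melanisation, had 37.6, 49.3, 87.8, 110 and 55.6 CPM at 4 h, against 30.7, 31.5, 43.2, 63 and 43.8 CPM at 2 h, and rose by 0.62 (SE 0.11). It was the 1 called of 19 haemocyte and melanisation genes, and its call was lost in the 30-library fit (adjusted p = 0.664, edgeR quasi-likelihood test).

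**Figure D4:**
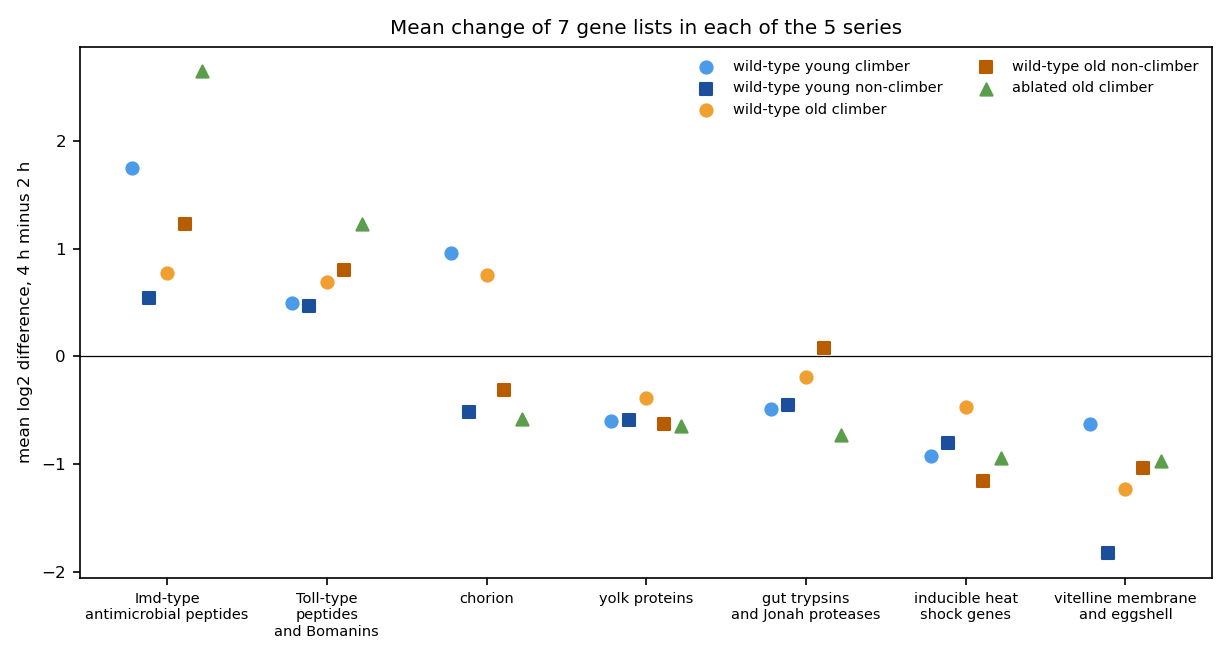
Mean log2 difference of 4 h minus 2 h over the members of 7 gene lists, 1 point for each of the 5 series. Yolk, heat shock and vitelline membrane genes are below 0 and both peptide lists above 0 in all 5 series, while the chorion mean is above 0 in both wild-type climber series and below 0 in the other 3 series.

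Among the rises outside the peptides, named at an average level of at least 3 log2 CPM, Cyp6a8, Fst and Phk-3 were the largest. Fst, or Frost, a gene known for its induction by cold, had 121, 124, 75.0, 116 and 98.8 CPM at 4 h, against 45.7, 32.4, 40.2, 35.6 and 42.6 CPM at 2 h. The hours did not overlap, and the log2 fold change was 1.43 ± 0.13 (adjusted p = 0.00029, edgeR quasi-likelihood test). It was the 1 gene called under each of the 16 alternatives tried. Phk-3, a secreted pherokine, rose by 1.37 (SE 0.13), with 18.3, 15.9, 48.2, 70.0 and 60.1 CPM at 4 h against 7.98, 6.31, 24.9, 25.4 and 16.7 CPM at 2 h.

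Cyp6a8, a P450 of detoxification, had 6.08, 11.7, 21.6, 47.8 and 5.01 CPM at 4 h, against 2.72, 4.34, 8.10, 9.21 and 2.30 CPM at 2 h (1.53 ± 0.20, adjusted p = 0.000488, edgeR quasi-likelihood test). Each pair rose, and old non-climbers rose most. CG16772 and CG43348 rose by 1.19 (SE 0.10) and 1.18 (SE 0.14). In the 30-library fit Cyp6a8, CG16772 and CG43348 lost their calls (adjusted p of 0.163, 0.298 and 0.0691, edgeR quasi-likelihood test). The other genes among the 15 largest rises were CG45045, CG15155, CG14567, CG15739 and CG30151, between 0.92 and 1.07. CG45045 lost its call without the young climbers or either old wild-type series (adjusted p up to 0.182, edgeR quasi-likelihood test), CG15155 without the ablated flies (0.0508), and CG30151 without the young non-climbers, the old wild-type climbers or the ablated flies (up to 0.0895).

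Ilp6, the insulin-like peptide of the fat body, had 83.8, 85.6, 114, 96.7 and 62.0 CPM at 4 h, against 53, 41.5, 86.7, 80.9 and 45.8 CPM at 2 h. It rose in every pair by 0.55 on average (SE 0.10, adjusted p = 0.0117, edgeR quasi-likelihood test). Its call was lost without the young climbers (adjusted p = 0.0518, edgeR quasi-likelihood test) and in the 30-library fit (0.155). Nplp2, a neuropeptide-like precursor, fell by 0.34 (SE 0.07), a call lost without any series but the young non-climbers (adjusted p up to 0.146, edgeR quasi-likelihood test). No member of the insulin receptor pathway passed among 19 tested. Ilp5 lay under 2 CPM in all 10 libraries and Ilp3 was not tested.

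The clock genes showed no called change over these 2 h. None of 15 passed, and their median was -0.06. tim had 11.4, 15.9, 28.0, 22.9 and 13.5 CPM at 4 h, against 11.8, 11.8, 22.6, 22.6 and 15.1 CPM at 2 h (0.11 with SE 0.13), and per was low, at 0.725 to 3.79 CPM at 4 h and 1.40 to 3.52 CPM at 2 h. vri, cry and Clk had log2 fold changes of -0.09, -0.30 and -0.24 with SE of 0.13, 0.17 and 0.28.

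Few genes of the general machinery passed. Of 84 cytosolic ribosomal proteins, 80 had a fold change below 0, against 5080 of all 9897 genes, with a median of -0.07. RpS2 was the 1 called (-0.24 ± 0.05). Its call was lost without the old non-climbers or the ablated flies (adjusted p up to 0.107, edgeR quasi-likelihood test). None of 58 nuclear genes of oxidative phosphorylation passed (median -0.07), nor any of 34 proteasome subunits (median 0.07, 30 above 0). The mitochondrial genome had a median of 0.20 over 36 genes, with mt:srRNA the 1 called (0.27 ± 0.06), a call lost without either young series (up to 0.135) and with 3 cohorts (0.123). None of 24 muscle, 20 neuronal or 19 eye genes passed. Muscle genes had a mean difference of 0.56 in young non-climbers and of -0.22 to 0.01 in the other series, and Mhc, the muscle myosin heavy chain, had 547 CPM in the young non-climber library of 4 h against 251 CPM at 2 h. The part of this library's muscle RNA in the other results was not tested. ACC, acetyl-CoA carboxylase, was the 1 called of 22 lipid synthesis genes (-0.31 ± 0.07), lost with any 1 series left out (adjusted p 0.0592 to 0.156, edgeR quasi-likelihood test) and with 3 cohorts (0.12). Of 23 endoplasmic reticulum folding genes, Sil1, a nucleotide exchange factor, was the 1 called (0.52 ± 0.10), a call lost without any series but the old wild-type climbers (up to 0.0667) and with 3 cohorts (0.0527).

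Against the unheated controls the groups ended the interval in different places. The median of the 13 inducible heat shock genes lay above the controls by 5.47, 4.39, 4.32, 3.71, 2.49 and 2.67 on the log2 scale at 0, 1, 2, 4, 6 and 8 h, and all 13 were above them at 2 h and at 4 h. The vitelline membrane and eggshell genes lay at 0.11, -0.36, 0.04, -1.04, -2.09 and -3.62. They were thus near the controls at 0 h and 2 h, with a dip to -0.36 at 1 h, and further below them from 4 h on. Toll-type peptides lay at -1.06, -0.62, -0.99, -0.33, -0.28 and -0.32, and Imd-type peptides at -1.84, -0.81, -1.77, -0.33, -0.02 and -1.01. At 4 h both peptide lists were therefore nearer the controls than at 2 h, and their medians had not passed them. The wild-type young control is in another batch than its heat-shocked libraries of 0, 1, 2 and 4 h. The wild-type old control is in another batch than its libraries of 0 h and 8 h and its non-climber library of 1 h. The share of these libraries in the differences cannot be told apart from batch.

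**Figure D5:**
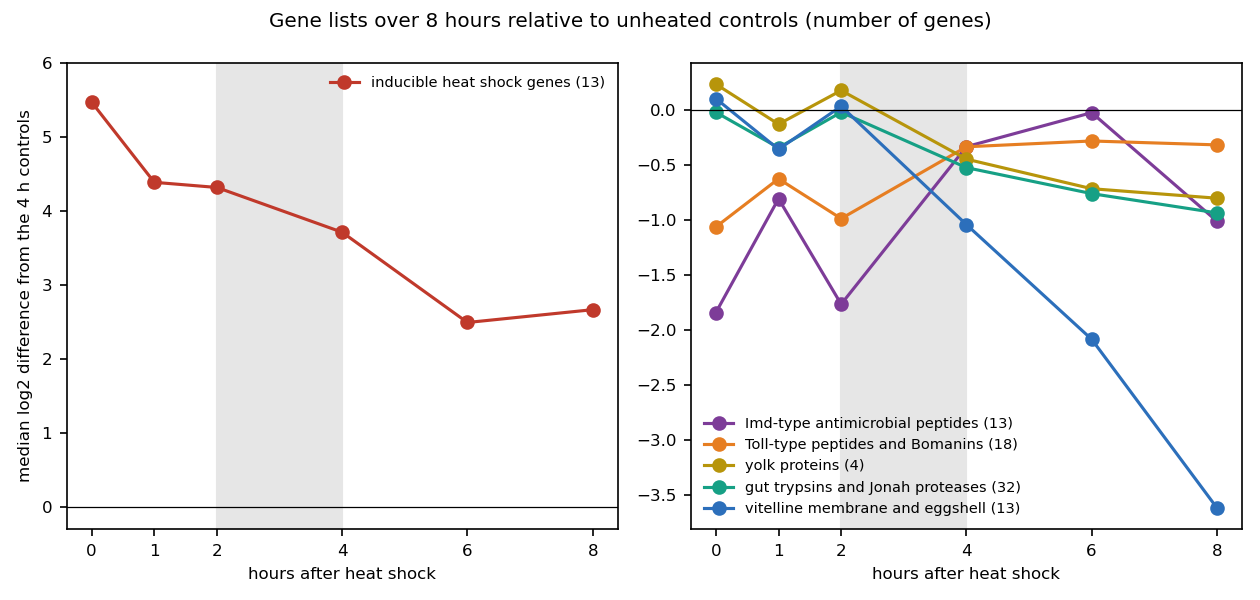
Median log2 difference between heat-shocked libraries and the unheated 4 h control of the same genotype and age at 0, 1, 2, 4, 6 and 8 h, for 6 gene lists, with the interval from 2 h to 4 h shaded. Not every heat-shocked library shares a batch label with its control. The heat shock list stays above 0 throughout, the vitelline membrane list is below 0 at 1 h and from 4 h on. Both peptide lists approach 0 between 2 h and 4 h.

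The genes called between 2 h and 4 h were also read in the libraries of other hours, which that test did not use. Of the 90 that rose, 80 were higher at 1 h than at 0 h, against 4679 of all 9897 genes, with a median of 0.18. Of the 61 that fell, 53 were lower at 1 h than at 0 h, against 5218 of all genes, with a median of -0.25. The fall was not steady, as the median of the 61 against the controls was 0.35, 0.20, 0.39 and -0.18 at 0, 1, 2 and 4 h. That of the 90 was -0.54, -0.24, -0.18 and 0.41. The libraries of 2 h and 4 h are those by which these genes were called. Later, 54 of the 90 were lower at 8 h than at 6 h (median -0.04), as were 44 of the 61 (median -0.12), against 4935 of all genes. These are counts and medians with no test, and not every pair at the other hours lies within a batch.

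Whether the change from 2 h to 4 h differed between kinds of flies was tested directly. Between old and young wild types 11 of 9876 genes differed (0.111%), with 820 at an unadjusted p under 0.05. PGRP-SC2, a peptidoglycan-degrading amidase, had log2 differences of 1.14 and 1.52 in old climbers and non-climbers, against -0.34 and -0.34 in young climbers and non-climbers (1.67 ± 0.21, adjusted p = 0.0126, edgeR quasi-likelihood test). CG13323 went the other way, with -0.25 and 0.07 in old and 0.84 and 0.86 in young series. The test has 2 residual degrees of freedom, and the count was 4 with another scaling (RLE) and 1 with limma-voom. Climbers and non-climbers of an age may share flies, so these p-values may be too small. At these hours the young and old libraries carry different batch labels, so a difference by age cannot be told apart from one by batch.

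Between non-climbers and climbers of wild type 1 of 9876 genes differed (0.0101%), with 231 at an unadjusted p under 0.05 and 0 by limma-voom. It was CG14785, with 1.66 and 1.09 CPM in young and old non-climbers at 4 h, against 3.50 and 1.93 CPM at 2 h, and with 16.5 and 25.5 CPM in young and old climbers at 4 h, against 1.86 and 2.44 CPM at 2 h. It was higher at 4 h in both climber series and lower in both non-climber series (difference of -4.22 ± 0.50, adjusted p = 0.0106, edgeR quasi-likelihood test). Cp7Fa, CG13083 and CG13084, chorion genes, and Mur2B came next, with differences of -1.62, -1.13, -1.60 and -1.29, and did not pass (adjusted p 0.149 to 0.347, edgeR quasi-likelihood test).

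Insulin ablated old flies had 1 series, so the spread of their change is not known, and their difference from wildtype old flies is given as values of these libraries, with no p. A fit that assumes the ablated series to vary like the 2 wild-type ones, with 1 residual degree of freedom, put 163 of 10250 genes past the threshold (1.59%), and this count is no measure of a genotype effect. DptA had a difference of 2.43, with 638 CPM at 4 h and 73.8 CPM at 2 h in ablated flies, against 739 and 417 CPM in old wild-type climbers and 613 and 421 CPM in old non-climbers. The ablated library of 2 h was the low one, while at 4 h the 3 old series were close. CecA1, CecA2, DptB and Mtk had differences of 2.73, 2.35, 1.89 and 1.46. The count was 72 with RLE scaling.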

How the data were processed

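The deposited values were whole-number counts per gene, not normalized, in 1 column per library; per the labels' protocols the libraries came from Trizol RNA of whole flies and a Lexogen 3' mRNA kit, with read 1 only used. STAR 2.7.5a and the dm6 build are named in the submitters' processing notes. The counting tool, strand setting and use of molecular identifiers are not given in the sources used here. Of 17609 genes, 17596 were matched to a symbol, and coordinates are those of Ensembl release 115 (BDGP6, the coordinates of dm6).

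Counts of the 10 libraries were filtered with edgeR's filterByExpr, scaled by trimmed mean of M values (TMM) and tested with edgeR 4.0.16 (quasi-likelihood, robust; R 4.3.3) with series as a block and 4 residual degrees of freedom; p-values were adjusted by Benjamini-Hochberg over all genes tested and called at 0.05. The common dispersion was 0.0284. Standard errors are those implied by the p-value and are not taken from the spread of the pair differences alone. CPM were scaled by TMM over 33 libraries (these 5 series at 6 hours and 3 controls), with a prior count of 2 for log2 values. Libraries of the same series are paired by their labels' genotype, age and classification and share a batch; their deviations from the hour means correlated at 0.383 to 0.767, against 0.438 for young non-climbers (whose own pair had the 0.383), 0.389 for young climbers and 0.495 for old climbers with the most similar library of another series. Nothing says that the libraries are separate cultures, or that climbers and non-climbers of an age are separate batches of flies, so p-values measure the spread between these series. Differences between kinds of flies were interaction terms.

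Members, gene lists and tests were chosen with earlier results of these data known. Named genes are the 15 largest called rises and falls at a mean log2 CPM of 3 or more and with 1 direction in 5 series, up to 4 called members a list, the inducible heat shock and clock genes, and the 5 smallest p-values of each interaction; other names were chosen after their values were seen. The test was checked on simulated counts of 9897 genes with 200 changed, drawn from those at a mean log2 CPM of 3 or more. It called 153 of the 200 at a fold of 1.5, 196 at 2 and 197 at 3. At these folds it also called 10, 20 and 23 genes that were not changed. The simulated libraries were drawn independently, so the check does not cover climbers and non-climbers that share flies. Alternatives were other scalings, filters and tools (DESeq2 1.42.0, limma 3.58.1 voom), no block, 30 libraries, climbers summed with non-climbers, thinning and each series left out.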

Additional observations from a re-analysis of the deposited data

Results flagged for a closer look

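In 4 of 60 named genes examined, 1 of the 5 pair differences stood apart from the other 4 by Dixon's criterion, which chance meets in about 1 group in 20. Vm26Ab in young non-climbers differed by -1.60 on the log2 scale, with the other pairs between -1.18 and -1.02. Hsp70Bc in old climbers differed by -0.73, with the others between -1.29 and -1.20, and Hsp83 in old climbers by -0.15, with the others between -0.47 and -0.38. Old climbers thus had the smallest falls of both. Cyp6a8 in old non-climbers differed by 2.36, with the others between 1.09 and 1.40.

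The change from 2 h to 4 h differed between old and young wild types, whose batch labels also differ, in 11 genes. Besides PGRP-SC2 (1.67) and CG13323 (-0.94), these held mt:tRNA:Ser-GCT (1.07) and the ribosomal pseudogene 18SrRNA-Psi:CR41602 (-1.81), whose reads can come from ribosomal RNA copies. It differed between non-climbers and climbers in 1 gene, CG14785 (-4.22).

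Between insulin ablated old and wildtype old flies, a fit that lends the single ablated series the spread of the wild-type ones put 163 genes past the threshold. With no replicate of the ablated series, whether the genotypes differ cannot be judged from it, and the values describe these libraries. The differences of ablated minus wild type were 2.43 for DptA, 1.89 for DptB, 1.46 for Mtk, 0.95 for AttA, 2.73 for CecA1 and 2.35 for CecA2. The ablated series also had the more positive change, by 0.51 for BomS1, 0.73 for Dso2, 0.86 for BomT1 and 0.64 for CG45045. More negative in the ablated series were PGRP-SC2 (-1.43), the chorion genes CG13084 (-1.69) and CG13083 (-1.07), Yp3 (-0.41) and Hsp23 (-0.46).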

How the results depend on the processing

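The signs of the 151 called genes were kept in all 16 alternatives, while their number moved. The alternatives reuse the same libraries, so kept signs are no separate support. DESeq2 called 264 genes and limma-voom 219, a fit to 30 libraries of the 5 series at 6 hours called 36, and the fit with no replicate block called 1, Fst. Without 1 series the count was 96 to 123, and 61 of the 151 kept their call in all 5 of these fits. Climbers and non-climbers summed into 3 cohorts gave 122 genes, 101 of them among the 151. The remaining scalings, filters and settings gave 141 to 212. The share of called genes higher at 4 h was 59.6%, and 48.8% without the old non-climbers. For 94 named genes, 1279 of 1502 values stayed on the same side of the threshold, 206 lost a call and 17 gained one. No called gene changed sign, and 18 values of 8 genes that were not called did. The age difference gave 11 genes, 4 with RLE scaling and 1 with limma-voom; the behaviour difference 1, and 0 with limma-voom; the genotype difference 163, and 72 with RLE scaling. The causes were not tested.

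With 5 pairs, changes under about 1.5-fold in scarce genes and those that vary between series, such as the Imd-type peptides, are poorly resolved. There is 1 library a condition, controls exist at 4 h only, and no molecular identifiers are known, so counting error alone understates the spread.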

Other observations

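Genes outside the rule for named genes are given here after their values were seen. CG14205 and CG14957, which lie under the level at which genes were named, had log2 fold changes of 1.91 (SE 0.38) and 1.51 (SE 0.24), with no overlap between the hours. CG14957 kept its call with any 1 series left out, and CG14205 in 3 of those 5 fits and not with 3 cohorts. Drat, a gene known from the response to hypoxia, had 380, 393, 309, 270 and 213 CPM at 4 h, against 183, 143, 183, 156 and 172 CPM at 2 h, with no overlap (0.87 ± 0.15, adjusted p = 0.0438, edgeR quasi-likelihood test). Its call was kept in 2 of the 5 fits without 1 series and in 8 of all 16 alternatives, and not with 3 cohorts or in the 30-library fit.

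CG4116, one of the 11 genes of the age difference, was present or absent by library. It had 617 to 1090 counts in 7 of the 26 wild-type libraries of the study, 0 to 4 counts in the other 19 and none in the 14 insulin ablated libraries. Young climbers and non-climbers had 687 and 617 counts at 4 h, against 4 and 0 at 2 h, and old climbers and non-climbers had 0 and 0 counts at 4 h, against 766 and 1090 at 2 h. The gene did not enter the test of 4 h against 2 h in the 10 libraries, and the cause of its pattern was not tested.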
